A study of Drosophila melanogaster with 4 samples.

Results

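The Ccp84A genes are 7 neighbouring cuticle protein genes, Ccp84Aa to Ccp84Ag, taken by symbol from a table of 15682 genes of Drosophila melanogaster. They were chosen because Ccp84Ad was higher and Ccp84Ag lower in heads with MJDtr-78Q, so every difference of theirs between the groups is given as a description, with no test. The study sequenced poly(A) RNA of fly heads in 2 libraries of flies expressing MJDtr-78Q and 2 libraries of w1118 flies, which do not express it. MJDtr-78Q is a truncated, polyglutamine-expanded form of human ataxin-3, the protein of Machado-Joseph disease, and w1118 is a laboratory strain with a mutated white gene. No label names the driver of the transgene, the cells it acts in, or the age, sex and number of the flies. No label ties a library to its own batch of flies, so p-values measure only the spread between these libraries, which may be technical.

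Insect cuticle is built from chitin fibres and secreted proteins, many of which bind chitin through the Rebers-Riddiford domain. The Ccp84A proteins belong to this family. Epidermal cells transcribe such genes in bursts set by pulses of ecdysone, mostly around the moults and the formation of the adult fly, and fall back to low levels as the cuticle matures. The cluster sits inside the Antennapedia complex, the group of homeotic genes that specify the head and front body segments.

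In the deposited coordinates, whose build is not given in the sources used here, the 7 genes lay on chromosome arm 3R between positions 2512450 and 2530625, a stretch of 18176 bases. Their order was Ag, Af, Ae, Ad, Ac, Ab, Aa. Ccp84Ag (FBgn0004777, 2512450 to 2513761), Ccp84Ad (FBgn0004780, 2518454 to 2519239) and Ccp84Aa (FBgn0004783, 2529804 to 2530625) are on the plus strand. Ccp84Af (FBgn0004778, 2515324 to 2515961), Ccp84Ae (FBgn0004779, 2516609 to 2517480), Ccp84Ac (FBgn0004781, 2520870 to 2521993) and Ccp84Ab (FBgn0004782, 2527689 to 2528599) are on the minus strand. Ccp84Ab and Ccp84Aa therefore start back to back, 1204 bases apart, and so do Ccp84Ae and Ccp84Ad, 973 bases apart. The widest gap, 5695 bases, separates Ccp84Ac from Ccp84Ab, and the noncoding gene lncRNA:CR33938 lies in it.

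The members share a gene structure that the choice of them did not use. Each has 1 annotated transcript with 2 exons, overlaps no other gene, and carries only 12 coding bases in its first exon, so the intron falls right after the start of the reading frame, where secreted proteins have their signal peptide. A first coding exon of 12 bases occurs in 163 of the 13298 protein-coding genes of the table (1.23%). It also occurs in 27 of 70 Cpr genes, the main family of Rebers-Riddiford proteins (38.6%), in 9 of 21 larval, pupal and adult cuticle genes named Lcp, Pcp, Acp or Edg (42.9%), and in 0 of 25 Tweedle genes, a cuticle family without that domain. The predicted proteins run from 151 amino acids for Ccp84Af to 221 for Ccp84Ab. Exonic lengths run from 580 bases for Ccp84Af to 1097 bases for Ccp84Ag, whose trailing untranslated region of 475 bases is the longest of the 7.

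Each deposited value is a log2 count, with 1 added before the log, already averaged by rank over the libraries of a group, and the whole reads behind them could be rebuilt for 98.3 to 99.0% of genes, all members included. The rebuilt reads sum to 2629740 and 1960193 in MJDtr-78Q libraries 1 and 2, against 6260137 and 3407720 in w1118 libraries 1 and 2, without the most abundant genes. Reads divided by a size factor, the relative depth of each library (0.735 and 0.574 in MJDtr-78Q, 2.10 and 1.13 in w1118), are called scaled reads below. Intervals on reads are exact Poisson or binomial 95% intervals and cover counting error only. They leave out the spread between libraries and are no test of a difference between the groups. Log2 values and differences (MJDtr-78Q minus w1118, with the SE of a limma fit over all genes) are after quantile normalization of the 4 libraries together, with n = 2 per group. The median difference of the 9049 genes with a mean of at least 10 was -0.02. Of these tested genes 0 (0%) passed at a limma adjusted p of 0.05, the lowest adjusted p being 0.512, and 532 (5.88%) had an unadjusted p under 0.05. Of the 7 members 4 were in that fit. Ccp84Ac, with a mean of 8.48, Ccp84Ae and Ccp84Af were below the limit and are given from the same fit without it. Ccp84Ad, with a mean of 12.7, was just inside.

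**Figure D1:**
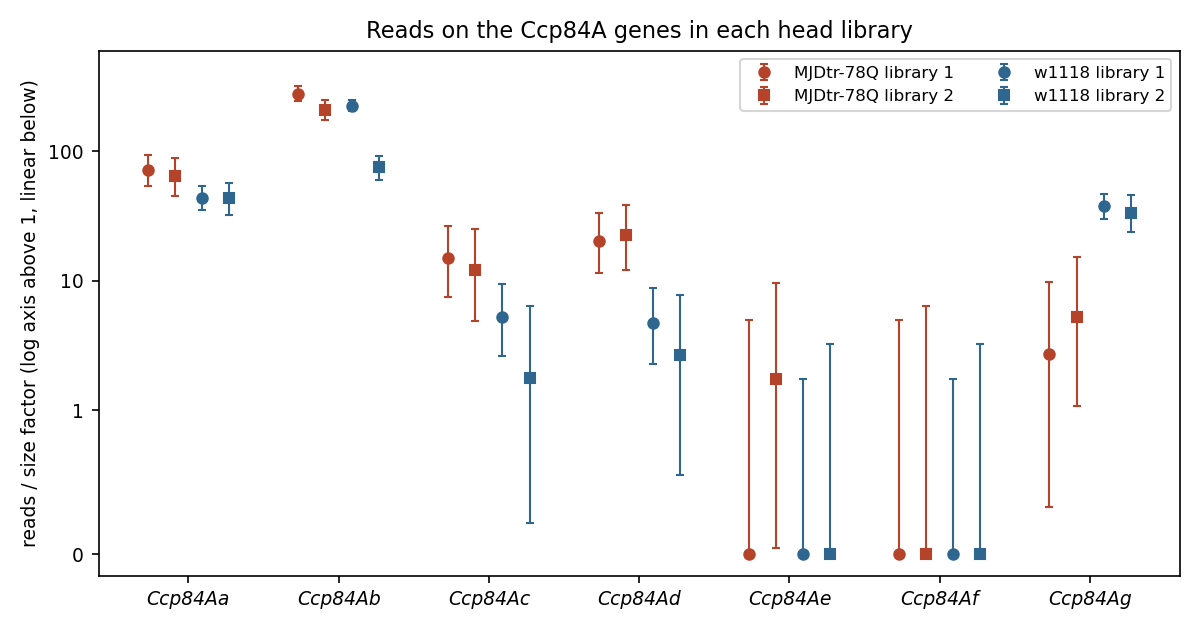
Scaled reads (reads divided by the size factor of the library) of each Ccp84A gene in the 2 MJDtr-78Q libraries (red) and the 2 w1118 libraries (blue), on an axis that is logarithmic above 1 and linear below; bars are exact Poisson 95% intervals of the reads. Ccp84Ag is far lower and Ccp84Ad and Ccp84Ac are higher in both MJDtr-78Q libraries, while w1118 library 2 stands below the other 3 libraries for Ccp84Ab.

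Ccp84Ag, at the labial end of the cluster, had 2 reads (95% interval 0.242 to 7.22) and 3 reads (0.619 to 8.77) in MJDtr-78Q libraries 1 and 2. It had 79 reads (62.5 to 98.5) and 38 reads (26.9 to 52.2) in w1118 libraries 1 and 2. Both w1118 libraries were well above both MJDtr-78Q libraries, and no intervals met. In scaled reads the gene averaged 3.98 ± 1.78 in MJDtr-78Q heads and 35.6 ± 2.85 in w1118 heads (SD, n = 2 each). The reads of each group summed over its libraries and divided by depth gave a ratio of 0.105, MJDtr-78Q over w1118, with a counting interval of 0.0336 to 0.253. On the log2 scale the values were 1.99 and 2.61 in MJDtr-78Q libraries against 5.23 and 5.08 in w1118 libraries, a difference of -2.85 (SE 0.48). Leaving out one library at a time, the difference was widest, -3.24, when MJDtr-78Q library 2 was dropped and narrowest, -2.61, when MJDtr-78Q library 1 was dropped.

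Ccp84Ad, in the middle of the cluster, had 15 reads (8.40 to 24.7) and 13 reads (6.92 to 22.2) in MJDtr-78Q libraries 1 and 2. It had 10 reads (4.80 to 18.4) and 3 reads (0.619 to 8.77) in w1118 libraries 1 and 2, which were sequenced more deeply. Scaled by depth, the gene was higher in both MJDtr-78Q libraries, at 20.4 and 22.7 scaled reads, than in both w1118 libraries, at 4.77 and 2.65. The depth-scaled ratio of summed reads, MJDtr-78Q over w1118, was 5.31, with a counting interval of 2.66 to 11.2. On the log2 scale the values were 4.45 and 4.55 in MJDtr-78Q libraries against 2.5 and 1.99 in w1118 libraries, a difference of 2.26 (SE 0.52). Dropping w1118 library 2 gave the smallest difference, 1.98, and dropping w1118 library 1 the largest, 2.44.

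Ccp84Ac, the next gene towards proboscipedia, had 11 reads (5.49 to 19.7) and 7 reads (2.81 to 14.4) in MJDtr-78Q libraries 1 and 2, against 11 reads (5.49 to 19.7) and 2 reads (0.242 to 7.22) in w1118 libraries 1 and 2. Scaled reads were 14.96 and 12.2 in MJDtr-78Q libraries and 5.24 and 1.77 in w1118 libraries, so the groups did not overlap, though the counting intervals of single libraries did. The depth-scaled ratio of summed reads, MJDtr-78Q over w1118, was 3.42, with a counting interval of 1.58 to 7.58. The log2 difference was 1.81 (SE 0.61, limma 95% interval -0.26 to 3.88), and 1.2 without w1118 library 2. Ccp84Ac stood lower in w1118 library 2 than in w1118 library 1, as did Ccp84Ad.

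Ccp84Aa, at the proboscipedia end, had 53 and 37 reads in MJDtr-78Q libraries 1 and 2, against 92 and 49 reads in w1118 libraries 1 and 2. It averaged 68.3 ± 5.36 scaled reads in MJDtr-78Q heads and 43.6 ± 0.348 in w1118 heads (SD, n = 2 each), and the groups did not overlap. On the log2 scale the values were 6.26 and 6.002 in MJDtr-78Q libraries and 5.46 and 5.44 in w1118 libraries. The gap between the w1118 libraries was wider than that of only 2.77% of tested genes. The log2 difference was 0.68 (SE 0.26). Taken straight from the deposited values, where the groups are not scaled to each other and the median tested gene is at -1.24, it was -0.60.

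Ccp84Ab, which starts back to back with Ccp84Aa, was the most abundant member in each library. It had 206 and 120 reads in MJDtr-78Q libraries 1 and 2, against 475 and 85 reads in w1118 libraries 1 and 2. Its scaled reads were 280 and 209 in MJDtr-78Q libraries, against 226 and 75.2 in w1118 libraries. The groups overlapped, because w1118 library 1 lay between the MJDtr-78Q libraries, and w1118 library 2 was by far the lowest. The gap between the 2 w1118 libraries, 1.58 on the log2 scale, was wider than that of 99.1% of tested genes, whose median gap was 0.24. The depth-scaled ratio of summed reads, MJDtr-78Q over w1118, was 1.44. Its counting interval, 1.25 to 1.65, lay above 1 although the groups overlapped, as it leaves out the spread between libraries. The log2 difference was 0.86 (SE 0.56, limma 95% interval -0.58 to 2.30), or -0.36 straight from the deposited values, 0.87 above the median of all tested genes there. It was 0.07 without w1118 library 2 and 1.66 without w1118 library 1, so its size rested on which w1118 library was kept.

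Ccp84Ae and Ccp84Af had almost no reads in heads. Ccp84Ae had 0 and 1 reads in MJDtr-78Q libraries 1 and 2 and 0 in both w1118 libraries. Ccp84Af had 0 reads in all 4 libraries. The exact Poisson interval of 0 reads reaches 3.69 reads in a library, so 0 reads at this depth do not show that a gene was silent. Ccp84Ad, which starts back to back with Ccp84Ae, had 3 to 15 reads, so in w1118 library 2 the order of the pair was not resolved.

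**Figure D2:**
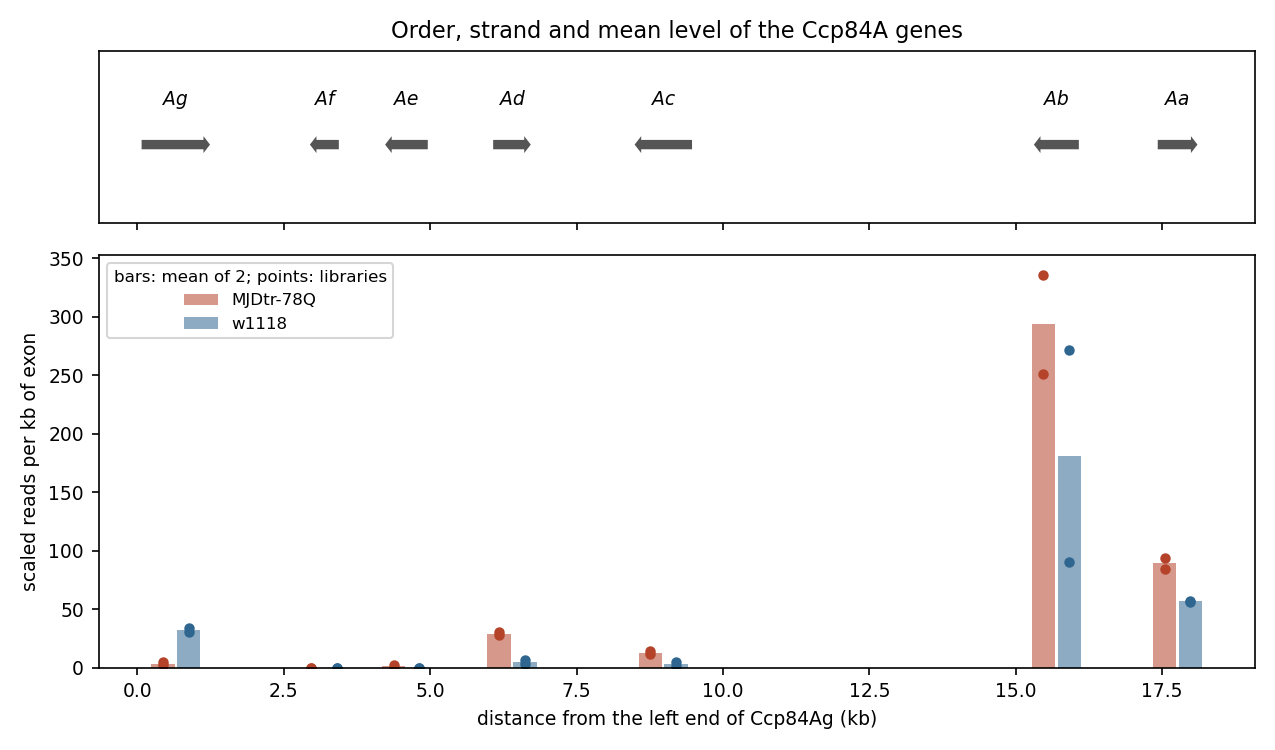
Upper panel: order and direction of transcription of the 7 Ccp84A genes along the arm, in kb from the left end of Ccp84Ag. Lower panel: scaled reads per kb of exon in MJDtr-78Q heads (red) and w1118 heads (blue), bars being means of 2 libraries and points the libraries; the 2 genes at the right end, Ab and Aa, have the highest levels in both groups.

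Per kb of exon, Ccp84Ab averaged 293 ± 60.2 scaled reads in MJDtr-78Q heads and 181 ± 128 in w1118 heads (SD, n = 2 each). This was above 92.6% and 87.2% of the 14704 genes that could be ranked in the same way in MJDtr-78Q and w1118 heads. Ccp84Aa averaged 89.3 ± 7.01 scaled reads per kb in MJDtr-78Q heads and 57.0 ± 0.455 in w1118 heads. The third place belonged to Ccp84Ad in MJDtr-78Q heads, at 29.3 ± 2.18 scaled reads per kb, and to Ccp84Ag in w1118 heads, at 32.5 ± 2.597. The order in MJDtr-78Q heads was Ab, Aa, Ad, Ac, Ag, Ae, Af, and from Ab to Ag the libraries of neighbours in that order did not overlap. In w1118 heads it was Ab, Aa, Ag, Ad, Ac, with Ae and Af both at 0, and there Ccp84Ad and Ccp84Ac, at 5.05 ± 2.03 and 3.31 ± 2.32 scaled reads per kb, overlapped.

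Shares of the cluster's reads within a library do not depend on how the libraries are scaled against each other. Ccp84Ag made up 0.697% (2 of 287 reads, interval 0.0845 to 2.49%) and 1.66% (3 of 181, 0.343 to 4.77%) of Ccp84A reads in MJDtr-78Q libraries 1 and 2. It made up 11.8% (79 of 667, 9.49 to 14.5%) and 21.5% (38 of 177, 15.7 to 28.3%) in w1118 libraries 1 and 2. Ccp84Ad held 5.23% (2.95 to 8.47%) and 7.18% (3.88 to 11.97%) in MJDtr-78Q libraries, against 1.499% (0.721 to 2.74%) and 1.69% (0.351 to 4.87%) in w1118 libraries. For each read of Ccp84Ag there were 7.5 and 4.33 reads of Ccp84Ad in MJDtr-78Q libraries 1 and 2, against 0.127 and 0.0789 in w1118 libraries 1 and 2. Ccp84Ad thus exceeded Ccp84Ag in both MJDtr-78Q libraries and lay below it in both w1118 libraries, on 2 or 3 reads of Ccp84Ag in MJDtr-78Q and 10 or 3 reads of Ccp84Ad in w1118.

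**Figure D3:**
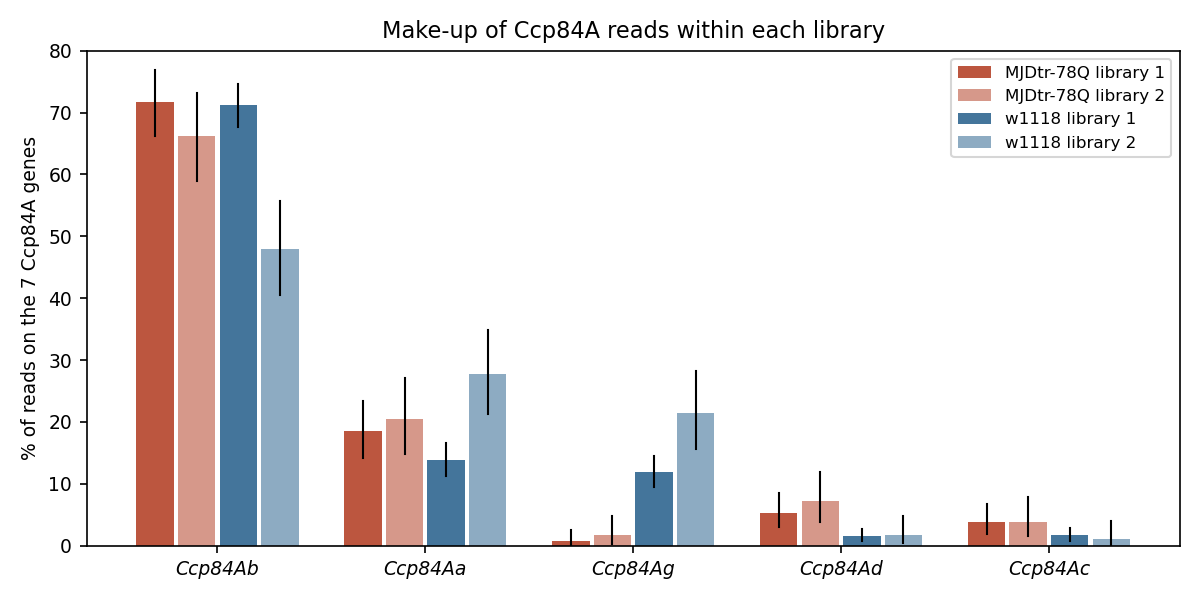
Share of the reads on the 7 Ccp84A genes that fell on each of 5 members, in the 2 MJDtr-78Q libraries (red, left) and the 2 w1118 libraries (blue, right), in percent; lines are exact binomial 95% intervals. The share of Ccp84Ag is at or under 1.66% in MJDtr-78Q libraries and at least 11.8% in w1118 libraries, and Ccp84Ab has its smallest share, 48.0%, in w1118 library 2.

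Ccp84Ab took 71.8% and 66.3% of the cluster's reads in MJDtr-78Q libraries 1 and 2, against 71.2% and 48.0% in w1118 libraries 1 and 2. The ratio of Ccp84Ab to Ccp84Aa reads was 3.89 and 3.24 in MJDtr-78Q libraries and 5.16 and 1.73 in w1118 libraries, so the neighbours did not keep a constant ratio between the w1118 libraries. Summed over the 7 members, scaled reads were 390 and 316 in MJDtr-78Q libraries, against 318 and 157 in w1118 libraries. How alike the members are in sequence was not measured here, so reads of one member counted for another cannot be told apart.

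Of the 7 members Ccp84Aa, Ccp84Ac and Ccp84Ad had both MJDtr-78Q libraries above both w1118 libraries. Such a pattern was found in 1546 of all 15682 genes (9.86%) and in 1267 of the 9049 tested genes (14.0%). Ccp84Ag alone among the 7 had both MJDtr-78Q libraries below, as 1947 of all genes (12.4%) and 1402 of the tested genes did (15.5%). Groups apart by at least 4-fold were found in 59 tested genes that were higher (0.652%), Ccp84Ad among them, and in 25 that were lower (0.276%), Ccp84Ag among them. These shares are background only, since the members were picked on this contrast. Ccp84Ad also reached the limit on the mean only through MJDtr-78Q heads, with 21.5 scaled reads against 3.71 in w1118 heads. Ccp84Ag reached it only through w1118 heads, with 35.6 scaled reads against 3.98 in MJDtr-78Q heads.

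Within 20000 bases of it the deposited table lists lab, Edg84A, lncRNA:CR33938 and pb. The homeotic gene lab (labial), 8138 bases from Ccp84Ag, had 26 and 6 reads in MJDtr-78Q libraries against 30 and 19 in w1118 libraries, a log2 difference of 0.32 (SE 0.69, limma adjusted p = 1.0). The MJDtr-78Q libraries lay on both sides of the w1118 libraries. The homeotic gene pb (proboscipedia), 2893 bases from Ccp84Aa, had 30 and 19 reads in MJDtr-78Q libraries against 71 and 47 in w1118 libraries, a log2 difference of 0.03 (SE 0.32, 95% interval -0.80 to 0.87, limma adjusted p = 1.0). Edg84A, an ecdysone-dependent cuticle gene 1595 bases from Ccp84Ag with the same 12-base first coding exon, had 0 reads in both MJDtr-78Q libraries and 2 and 0 reads in w1118 libraries 1 and 2. The noncoding gene between Ccp84Ac and Ccp84Ab had 0 reads in each library. Of 10 genes listed for the Antennapedia complex 5 were tested and 0 were called, and the differences ran from -0.59 for Dfd to 0.54 for Ama. The groups did not overlap in 2 that were lower, Dfd and Scr (40%, against 15.5% of all tested genes). None was higher without overlap, against 14.0% of all tested genes.

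**Figure D4:**
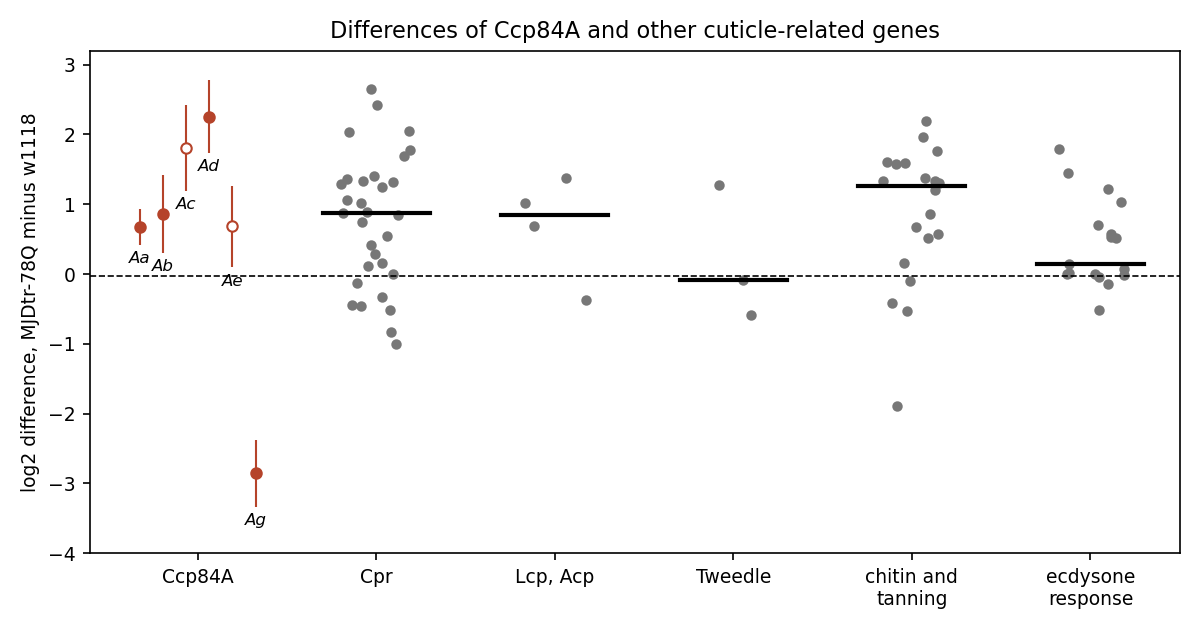
Log2 differences, MJDtr-78Q minus w1118, of 6 Ccp84A genes (red, with SE; open symbols for genes below the limit on low values, Ae resting on 1 read) and of the tested genes of 5 cuticle-related lists (grey, thick lines for list medians); the dashed line is the median of all tested genes. The members were chosen on this contrast, and the differences of the 31 Cpr genes spread from -0.997 to 2.66.

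Other cuticle genes were compared in the same fit. Of 70 Cpr genes 31 were tested and 0 were called in either direction. Their median difference was 0.88, or -0.22 straight from the deposited values, where it lies 1.01 above the median of all tested genes, and 0.58 without w1118 library 2. Of the 31, 24 were above 0 (77.4%), against 46.6% of all tested genes. The groups did not overlap in 19 that were higher (61.3%, against 14.0% of all tested genes) and 3 that were lower (9.68%, against 15.5%). Cpr49Aa, Cpr56F, Cpr62Ba and Cpr92A, all above 0, reached the limit on the mean only through MJDtr-78Q heads. Cpr49Aa and Cpr56F are also among the 19, so these counts follow in part from the limit. The differences of the 31 genes ran from -0.997 to 2.66. Cpr47Ef, Cpr92F and Cpr97Ea had the lowest p, with differences of 1.07 (SE 0.23), 1.34 (SE 0.30) and 1.69 (SE 0.40), and did not pass (limma adjusted p = 0.607, 0.612 and 0.617). Of the Lcp, Pcp, Acp and Edg genes 4 were tested and 0 called, with a median of 0.85. That median was 0.24 without MJDtr-78Q library 2 and 0 when all 21 genes were taken. Straight from the deposited values it was -0.59, which lies 0.64 above the median of all tested genes there. Acp1, an adult cuticle gene, differed by 1.37 (SE 0.25, limma adjusted p = 0.595) and the larval cuticle gene Lcp1 by 1.02 (SE 0.30, limma adjusted p = 0.693). Only 3 of 26 Tweedle genes could be tested, with a median of -0.08 and 0 called.

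The gap between the w1118 libraries seen for Ccp84Ab was also looked at in the lists. Of the 31 tested Cpr genes, 6, picked on their values, were more than 1 log2 unit higher in w1118 library 1 than in w1118 library 2 (19.4%), against 206 of all tested genes (2.28%). They were Cpr49Ac (by 4.30), Cpr56F (2.09), Cpr11A (2.00), Cpr64Aa (1.27), Cpr100A (1.22) and Cpr97Ea (1.03). All 6 had both MJDtr-78Q libraries above both w1118 libraries, unlike Ccp84Ab. So did 19 of the 31 Cpr genes (61.3%) and 14.0% of all tested genes. The 6 were picked on w1118 values that enter this comparison, so it is background only. Over the 31 genes 21 were higher in w1118 library 1, and the median gap was 0.24, against -0.02 over all tested genes. Of the 20 tested genes of the chitin and tanning list 6 were more than 1 log2 unit higher in w1118 library 1, and the median gap was 0.56. The MJDtr-78Q libraries differed too. There 13 of the 31 Cpr genes were higher in library 1, with a median gap of -0.26, against -0.07 over all tested genes. For the chitin and tanning list that gap was 0.27.

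Of 20 tested genes that make, modify and harden the chitin matrix 16 were above 0 (80%, against 46.6% of all tested genes) and 0 were called. Their median difference was 1.26. The median was 0.77 without w1118 library 2 and 0.85 when all genes of the list in the table were taken. Straight from the deposited values it was 0.01, which lies 1.25 above the median of all tested genes there. The groups did not overlap in 15 that were higher (75%, against 14.0% of all tested genes) and 3 that were lower (15%, against 15.5%). knk, needed to protect and order chitin, differed by 1.38 (SE 0.30), serp, a chitin deacetylase gene, by 1.57 (SE 0.38), and Gasp, which encodes a chitin-binding protein, by 1.31 (SE 0.34). These had the lowest p of the list, and none passed (limma adjusted p = 0.607, 0.628 and 0.643). The 3 lower genes without overlap were t, at -1.89 (SE 0.50), Idgf6, at -0.52 (SE 0.34), and Ddc, at -0.42 (SE 0.23). Of 17 tested genes of the ecdysone response and of cuticle maturation 12 were above 0 (70.6%, against 46.6% of all tested genes) and 0 were called. Their median was 0.15. That median was 0.53 without MJDtr-78Q library 2, 0.36 without w1118 library 1 and 0.01 without w1118 library 2. Straight from the deposited values it was -1.04, which lies 0.19 above the median of all tested genes there. Those with the lowest p were the ecdysone-induced Eip74EF, at 1.22 (SE 0.30), the nuclear receptor gene Hr4, at 1.79 (SE 0.55), and the bursicon receptor gene rk, at 1.04 (SE 0.40), and none passed (limma adjusted p = 0.628, 0.722 and 0.843).

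Markers of other head tissues were compared in the same fit. Over 6 photoreceptor markers, all tested, the summed level after normalization and back-transformation was 58768 to 64140 in MJDtr-78Q libraries and 109117 to 111993 in w1118 libraries, with a median log2 difference of -0.86, 0 called and 0 markers without reads. Of the 6 photoreceptor markers 1 was above 0. In 4 both MJDtr-78Q libraries lay below both w1118 libraries (66.7%, against 15.5% of all tested genes). Arr2, an arrestin of the photoreceptors, had the lowest p and differed by -1.34 (SE 0.22, limma adjusted p = 0.595). Over 5 neuron markers the summed level was 6703 to 14775 in MJDtr-78Q libraries and 7478 to 10170 in w1118 libraries. Over 5 glia markers it was 7237 to 9448 in MJDtr-78Q libraries and 6803 to 7649 in w1118 libraries, and 0 of either list were called. Such sums are weighted towards abundant markers. Above 0 were 4 neuron and 3 glia markers. The groups did not overlap in 1 neuron marker, elav, at 0.18 (20%, against 14.0% of all tested genes). Among glia markers they did not overlap in nrv2, at 0.35 (20%, against 14.0%), and repo, at -0.35 (20%, against 15.5%). In bulk heads fewer cells of a type and less RNA per cell cannot be told apart, and likewise for more epidermis and more cuticle RNA per cell. Markers of ovary (7 in the table), testis (8) and gut (9) had 0 tested genes. The ovary markers summed to 30.01 and 3.15 in MJDtr-78Q libraries 1 and 2, against 2.34 and 1.72 in w1118 libraries 1 and 2. The gut markers summed to 1.29 and 14.97 in MJDtr-78Q libraries 1 and 2, against 0 in both w1118 libraries. Of the 8 testis markers 8 were at 0 in each MJDtr-78Q library and 7 in each w1118 library. The part of tissue make-up in the Ccp84A differences was not tested. The gene w (white), mutated in the w1118 strain, differed by 0.58 (SE 0.26, limma adjusted p = 0.948).

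For Ccp84Ad and Ccp84Ag the 3 tested genes with the most similar pattern over the 4 libraries were taken, by the distance between log2 values centred on each gene's mean. Differences between the groups near those of Ccp84Ad or Ccp84Ag follow from this choice and are given as a description. Nearest to Ccp84Ad were CG11345 (distance 0.278), ninaD, a scavenger receptor gene for carotenoid uptake (0.338), and CG30280 (0.431). They lie on arms 3L, 2L and 2R and differed by 2.20 (SE 0.29), 2.57 (SE 0.31) and 2.66 (SE 0.58). CG30280 is as thinly covered as Ccp84Ad, with 15 and 11 reads in MJDtr-78Q libraries against 6 and 2 in w1118 libraries. Nearest to Ccp84Ag were the ionotropic co-receptor gene Ir76b (0.459), the photoreceptor channel gene trpl (0.520) and lncRNA:CR43989 (0.722). They differed by -2.41 (SE 0.51), -3.03 (SE 0.23) and -2.17 (SE 0.49). Ir76b had 2 and 3 reads in MJDtr-78Q libraries, the same as Ccp84Ag, against 54 and 28 in w1118 libraries.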

How the data were processed

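The deposited values of the 15682 genes are log2 counts with 1 added before the log, which the values themselves show. The submitters' processing notes name HTSeq 0.6.1, TopHat2 2.0.10 with Bowtie, cutadapt 1.2.1 and CASAVA 1.8.2, with no roles; the genome build and the strand setting of the counting were not found. Per the labels' protocols, poly(A) libraries were made with a stranded kit. From the values, the authors normalized quantiles inside each group only. Each value is the mean of log2(count + 1) of both libraries of its group at one rank, tied genes taking their middle rank, so 4 to the power of a value is a product of whole numbers and the reads were rebuilt upwards from 0. Repeating the authors' step on them returned all of the 14327 to 14604 values per library below the first unresolved one, within 1e-06. Size factors are median-of-ratios over 9537 genes. Starts in the deposited loci are counted from 0 (end minus start equals the annotated length in 7421 of 14921 genes, and is 1 less in 175) and are printed counted from 1. Gene symbols (15002 IDs matched, 680 did not), strands, exons and lengths came from an Ensembl annotation and a name table by gene ID, without their coordinates.

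The 4 libraries were quantile normalized together and compared with limma 3.58.1 (R 4.3.3, intensity trend, two-sided, Benjamini-Hochberg over all tested genes), after a limit of a mean of at least 10. The steps were run on simulated reads with the same dispersion for all genes and no effect shared by same-numbered libraries. That run does not show what the fit can detect in the real libraries. Log2 differences include the added 1, so they are too small for genes with few reads. Members, lists and rules were chosen with earlier results of these data known. Genes were named by rule: the members, genes within 20000 bases, up to 3 of each of 12 lists by lowest p, w, and the 3 nearest in pattern to Ccp84Ad and Ccp84Ag.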

Additional observations from a re-analysis of the deposited data

How the results depend on the processing

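No gene was called in limma over all tested genes under 11 of the 16 alternatives. Leaving out each library in turn gave 0 to 2 called genes, 2 being the number without w1118 library 1. With the replicate number as a block 387 genes were called; same-numbered libraries deviated together from their group means (r = 0.536 over 9049 genes), but the labels do not say that the numbers mark a shared batch. With the deposited values and no scaling between groups 6794 genes were called, 6781 of them lower, since that scaling places the median tested gene at -1.24. With no filter 49 genes were called, and with a trend on exonic length removed 6. With voom on the rebuilt reads, chosen after seeing the data, 0 were called and 496 had an unadjusted p under 0.05. The differences of Ccp84Aa, Ccp84Ab, Ccp84Ac and Ccp84Ad relative to the median of all tested genes stayed above 0, and that of Ccp84Ag below 0, under the other scalings, pseudocounts, the length correction, voom and each library left out. The filters, the robust prior, the fit without an intensity trend and the block leave a gene's own difference as it is, and Ccp84Ae rests on 1 read. The relative difference of Ccp84Ag ran from -3.21 to -2.12, that of Ccp84Ad from 1.62 to 2.48, and that of Ccp84Ab from 0.09 to 1.70; a pseudocount of 5 gave the value nearest 0 for Ccp84Ad and Ccp84Ag. With the length trend removed these relative differences were -2.75 for Ccp84Ag and 2.403 for Ccp84Ad. Relative to all tested genes the Cpr median of 0.90 was 0.07 with no filter, where many members are near 0 reads, and 0.60 without w1118 library 2. Small list medians changed sign. That of the 5 Antennapedia complex genes was -0.0041 in the deposited values, -0.0283 with TMM, -0.0278 with upper-quartile scaling and -0.19 with no filter, and ran from -0.44 to 0.40 when one library was left out. That of the 3 Tweedle genes was 0.0020 with the length trend removed and ran from -0.24 to 0.13 when one library was left out. In the same way that of neuron markers ran from -0.35 to 1.07 and that of glia markers from -0.045 to 0.54. The cause of these sign changes was not tested. Depth limits Ccp84Ae and Ccp84Af, which had 0 or 1 reads, and the size of the differences of Ccp84Ac, Ccp84Ad and Ccp84Ag, which had 2 to 15 reads in at least 1 group.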
